A study of Mus musculus with 12 samples.

Results

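Fibroblast growth factor (FGF) signalling genes of the organ of Corti were followed in bulk RNA-seq of the postnatal mouse cochlea. Members were the 10 genes found by symbol among the 28686 gene symbols of the count table, namely the ligands *Fgf8*, *Fgf10* and *Fgf20*, the receptors *Fgfr1*, *Fgfr2* and *Fgfr3*, the feedback inhibitors *Spry1*, *Spry2* and *Spry4*, and the transcription factor *Etv5*. The cochlear sensory epithelium was dissected at postnatal day (P)6 from 6 Sox2CreER/+Jag1fl/fl mutants and 6 Sox2+/+ littermate controls, as biological replicates. The labels give the strain as C57BL/6 and 129SV, whereas the study's methods place the CreER line on C57bl6/J and the floxed line on FVB/n. The mutants carried 1 CreER allele in the *Sox2* locus and floxed *Jag1* on each chromosome. The controls had no CreER allele and so differed from the mutants at *Sox2* too. The study's methods use the name Sox2+/+ for both Jag1+/fl and Jag1fl/fl mice, and which of these each control was is not given in the sources used here. Pups of either genotype were injected with tamoxifen at P0 and P1, which activates CreER in all supporting cell subtypes of the cochlea. JAG1 is a ligand of Notch receptors, and the comparison asks what its loss from maturing supporting cells changes.

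FGFs are secreted ligands that bind receptor tyrosine kinases and start the Ras-MAPK relay. The relay switches on ETS transcription factors such as *Etv5* and the Sprouty genes, which in turn dampen it, so Sprouty and *Etv5* levels are often read as an output of the pathway. In the organ of Corti, inner hair cells make FGF8, which signals to FGFR3 on the neighbouring cells that become pillar cells, and mice without *Fgfr3* lack normal pillar cells. FGF20 acts earlier through FGFR1 on the sensory progenitors, and FGF10 binds mainly FGFR2 in the developing ear.

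Between 28498549 and 36134983 reads per library were counted on genes. Values are given in CPM, a gene's count scaled to the total of its library with TMM factors, so that libraries can be compared. *Jag1*, the targeted gene, had 83.0 CPM in the lowest, 104 in the median and 118 in the highest control, against 24.2, 37.5 and 42.9 CPM in the mutants. The groups did not overlap, and its log2 fold change was -1.48 (SE 0.13, edgeR adjusted p = 0.000258). In a model that also held the neuron and Schwann cell scores it was -1.41 (SE 0.20), and the call was lost (edgeR adjusted p = 0.0684). Markers of the labelled tissue were present in every library, and none of the markers listed was at 0. Summed over 12 hair cell markers, the level was 493 to 556 CPM in controls and 454 to 599 CPM in mutants, and summed over 7 pillar and Deiters cell markers it was 541 to 586 CPM in controls and 512 to 655 CPM in mutants. The tissue also held neurons and Schwann cells, and their markers differed with genotype. The sum of 10 neuron markers was 56.1 to 184 CPM in controls and 94.0 to 1160 CPM in mutants, with 9 of the 10 higher at an unadjusted p under 0.05. The sum of 9 Schwann cell markers was 571 to 1591 CPM in controls and 1308 to 6449 CPM in mutants, with 8 of the 9 higher at that level. Of 7 macrophage markers 4 were lower at an unadjusted p under 0.05, with sums of 275 to 344 CPM in controls and 228 to 295 CPM in mutants, and of 5 greater epithelial ridge markers 2 were lower (*Tecta* and *Otog*). The study reports a substantial loss of Hensen's cells in these mutants at P6 by immunostaining. The sum of 3 Hensen cell markers was 152 to 168 CPM in controls and 112 to 165 CPM in mutants. All 3 had a log2 fold change below 0, and 0 had an unadjusted p under 0.05. The sum is no count of Hensen's cells, since in the study's staining FABP7, encoded by 1 of the 3, also marks inner phalangeal and border cells. The sum of 8 mesenchyme markers was 10090 to 12260 CPM in controls and 9696 to 10860 CPM in mutants. Of these 8, 0 had a log2 fold change above 0, and 1 (*Dcn*) was lower at an unadjusted p under 0.05. The part of these cells in the values below was not tested except where a model with their scores is named. In bulk tissue, fewer cells of a type and less RNA per cell cannot be told apart.

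No member passed the test between the genotypes. Of the 10 genes, 9 had the mean count of at least 5 that was required for the test, and 0 of these 9 had an adjusted p under 0.05 in edgeR's quasi-likelihood test, where 0.19% of all 18459 genes tested did. At an unadjusted p under 0.05 there were 0 of 9 members against 10.6% of all genes tested. DESeq2 also called 0 of 9, against 3.37% of the genes it gave an adjusted p. The 2 genotypes overlapped in CPM for each of the 10 members, while they did not overlap for 0.997% of the genes tested. The log2 fold changes of the 9 members lay between -0.14 and 0.03 with a median of -0.10, and 7 of the 9 were below 0. Over all genes tested the median was 0.0030 and 49.1% were below 0.

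**Figure D1:**
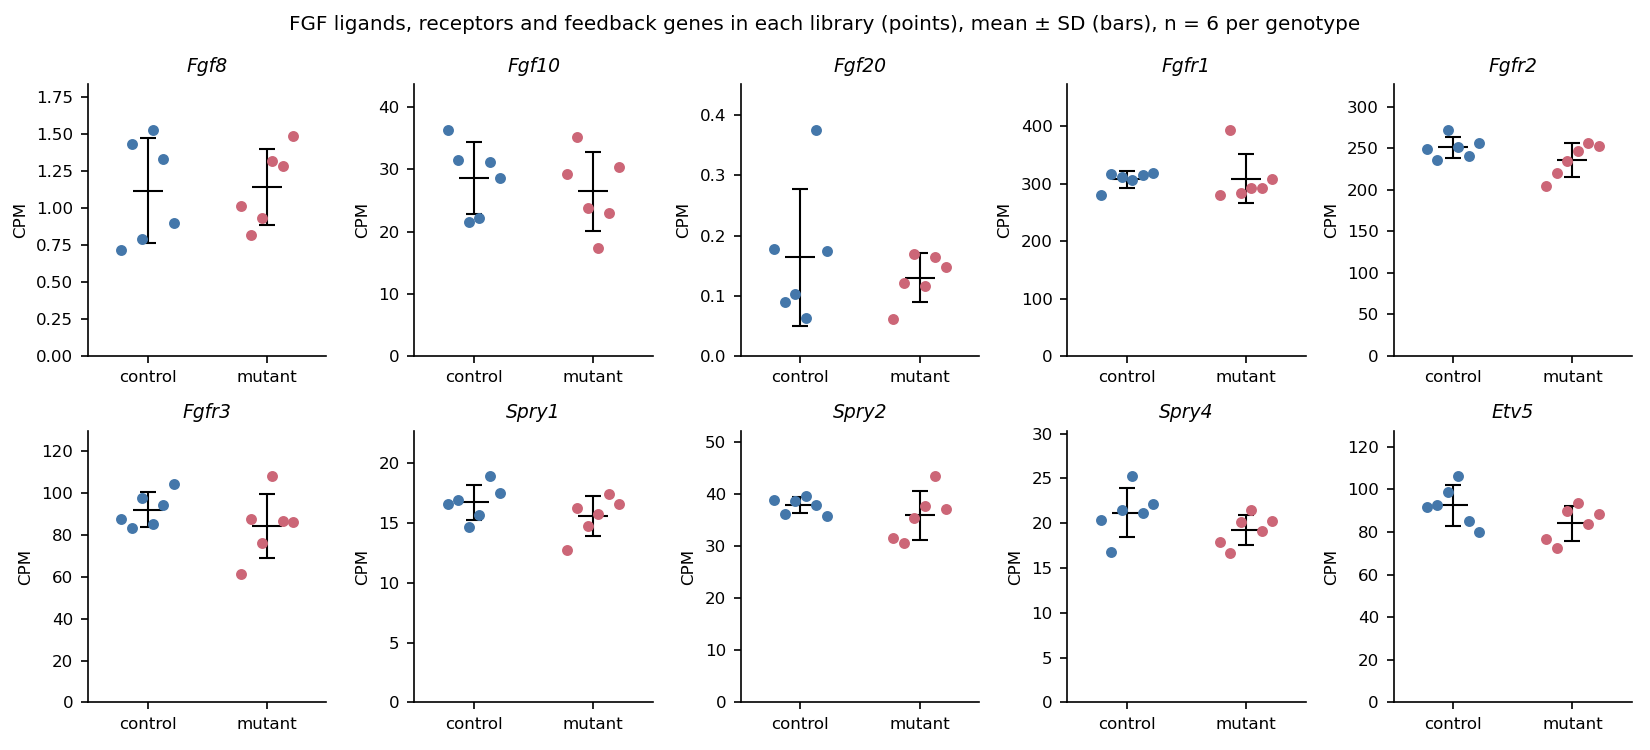
Levels of the 10 members in CPM (vertical axes, each from 0) in 6 control and 6 mutant libraries. Points are libraries and bars are the mean and SD. The groups overlap in each panel, mutant 2 stands above the other libraries for *Fgfr1*, and mutant 1 holds the lowest *Fgfr3* value.

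Levels between genes were compared per length, as CPM per kb of the longest annotated coding transcript, in the 6 controls. They are levels of the whole dissected tissue, with its mesenchyme, and not of a single cell type. *Fgfr1* stood highest at 61.3 ± 2.92 CPM per kb (SD, n = 6), next to *Fgfr2* at 58.3 ± 3.0, and the ranges of these receptors overlapped. *Etv5* at 23.3 ± 2.36 and *Fgfr3* at 21.7 ± 1.93 CPM per kb came next and also overlapped. *Spry2* followed at 18.1 ± 0.74 CPM per kb, below *Fgfr3* in 6 of 6 controls. *Fgf10* at 6.95 ± 1.41 and *Spry1* at 6.02 ± 0.53 CPM per kb were not separated, and *Spry4* lay at 4.45 ± 0.58. *Spry1* and *Spry4* overlapped in range, although *Spry1* was the higher in 6 of 6 controls. The ligands *Fgf8*, at 0.95 ± 0.30, and *Fgf20*, at 0.11 ± 0.077 CPM per kb, were the lowest members. *Fgf8* stood 4.67-fold below *Spry4* and 8.60-fold above *Fgf20*, with no overlap on either side. With the union of all annotated exons as the length, *Fgfr3* at 12.9 CPM per kb came below *Spry2* at 18.1, and the order of the other members was kept.

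**Figure D2:**
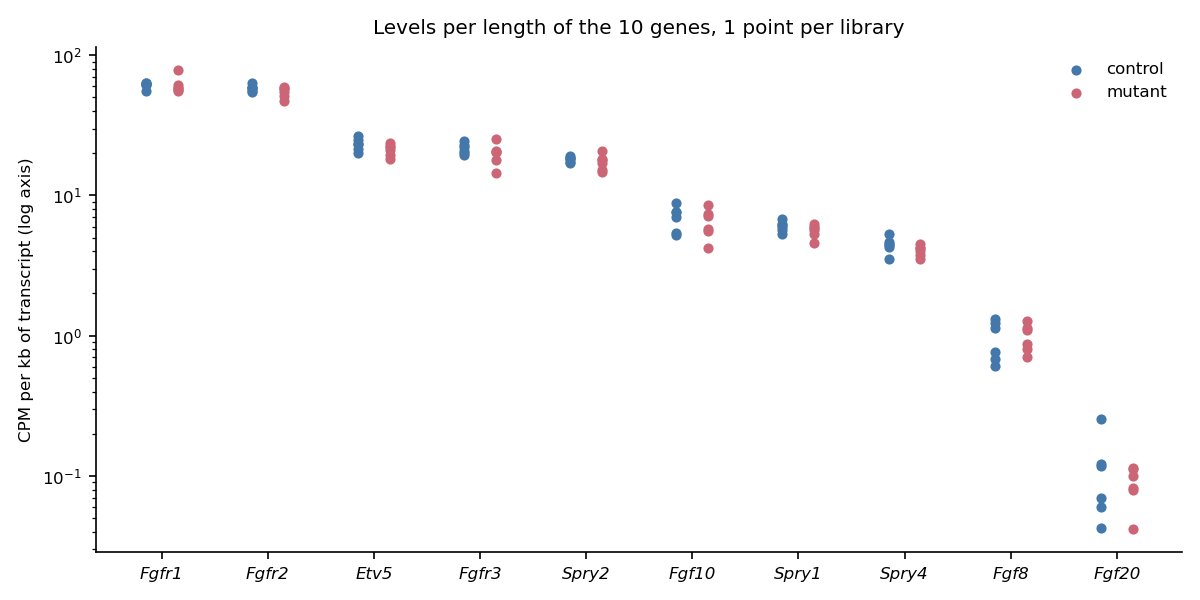
CPM per kb of transcript on a log axis for the 10 members, ordered by their mean in controls, with 1 point per library. *Fgfr1* and *Fgfr2* lie together at the top and *Fgf8* and *Fgf20* lie below the other members, in controls and mutants alike.

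The ligands were measured least well. *Fgf8* (chr19:45736798-45742915, minus strand, GRCm38), the inner hair cell ligand, had only 20 to 50 counts per library. It was at 0.713, 1.12 and 1.53 CPM in the lowest, median and highest control and at 0.819, 1.15 and 1.48 CPM in the mutants. All 6 mutants lay within the range of the controls. Its log2 fold change was 0.03 (SE 0.23, edgeR adjusted p = 0.989), and its 95% interval runs from 72.9% to 143% of the control level, so a difference within those limits could not be seen with these libraries.

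*Fgf10* (chr13:118714699-118792115, plus strand) was the most abundant ligand among the members, with 594 to 1161 counts per library. Controls had 21.5, 30.0 and 36.4 CPM (lowest, median, highest) and mutants 17.4, 26.5 and 35.2 CPM. Only mutant 4 lay outside the control range, below it. For *Fgf10* the log2 fold change was -0.11 (SE 0.17, edgeR adjusted p = 0.916), with an interval of 72.3% to 119% of the control level.

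*Fgf20* (chr8:40279166-40286953, minus strand), the ligand of the prosensory stage, was nearly silent at P6. It had 2 to 13 counts per library, below the count limit of the test, at 0.0623, 0.139 and 0.376 CPM in controls and 0.0613, 0.135 and 0.170 CPM in mutants. Without the count limit its log2 fold change was -0.33 (SE 0.44, edgeR adjusted p = 0.930), and such counts cannot show a difference of that size.

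The receptors were measured far better. *Fgfr1* (chr8:25518759-25575718, plus strand) had 280, 313 and 319 CPM in the lowest, median and highest control and 281, 293 and 394 CPM in the mutants. Mutant 2 held the highest value and the other 5 mutants lay below the control median. The log2 fold change was 0.0045 (SE 0.082, edgeR adjusted p = 0.995), which leaves 88.9% to 113% of the control level. It was -0.077 without mutant 2 and -0.029 without control 1, and it was below 0 in 4 alternative fits of all 12 libraries, so that it had no stable sign.

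*Fgfr2* (chr7:130162451-130266263, minus strand), the receptor through which FGF10 acts, had 236, 251 and 272 CPM in controls and 205, 241 and 257 CPM in mutants. The 3 lowest values of the mutants, in mutants 1, 2 and 3, lay under the lowest control. For *Fgfr2* the log2 fold change was -0.09 (SE 0.066, edgeR adjusted p = 0.750), with an interval of 85.2% to 104%.

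*Fgfr3* (chr5:33721724-33737068, plus strand), the receptor of pillar and Deiters cells, had 83.1, 90.9 and 104 CPM in controls and 61.2, 86.4 and 108 CPM in mutants. The mutants spread wider than the controls, since mutant 1 lay below and mutant 4 above all of them. For *Fgfr3* the log2 fold change was -0.13 (SE 0.11, edgeR adjusted p = 0.799), with an interval of 78.0% to 107%. Counts per gene do not separate the IIIb and IIIc isoforms of the receptors, which bind different FGFs.

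The receptor kinases were set beside each other by their share of the summed CPM per kb of *Fgfr1* to *Fgfr4*. These shares are of the whole dissected tissue, in which mesenchyme markers summed to 9696 to 12260 CPM and pillar and Deiters cell markers to 512 to 655 CPM. Which cells held each receptor was not tested. *Fgfr1* made up 31.9% ± 1.02 (SD, n = 6) of the sum in controls and 33.9% ± 3.25 in mutants, and *Fgfr2* made up 30.4% ± 1.70 and 30.3% ± 2.38. *Fgfr3* contributed 11.3% ± 0.97 and 10.9% ± 1.64, the lowest share in either genotype. *Fgfr4*, which is no member, held 26.4% ± 2.49 and 25.0% ± 2.18. The place of *Fgfr4* depends on the length used, since by the union of exons it had 47.7 CPM per kb in controls against 31.2 for *Fgfr1* and 24.3 for *Fgfr2*.

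The 4 feedback genes had log2 fold changes between -0.14 and -0.07, and none passed the test. *Etv5* (chr16:22381309-22439719, minus strand) had the smallest p of the members. It was at 79.8, 92.3 and 106 CPM in the lowest, median and highest control and at 72.4, 86.2 and 93.5 CPM in the mutants, with 5 of 6 mutants below the control median. The log2 fold change of *Etv5* was -0.14 (SE 0.080, unadjusted p = 0.113, edgeR adjusted p = 0.635), and the interval was 80.8% to 102% of the control level.

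*Spry1* (chr3:37639947-37644598, plus strand) had 14.7, 16.8 and 18.9 CPM in controls and 12.7, 16.0 and 17.4 CPM in mutants. *Spry2* (chr14:105891947-105896819, minus strand) had 35.8, 38.3 and 39.6 CPM in controls and 30.5, 36.3 and 43.4 CPM in mutants. *Spry4*, on chromosome 18, had 16.8, 21.3 and 25.2 CPM in controls and 16.7, 19.6 and 21.4 CPM in mutants. For each Sprouty gene 5 of 6 mutants lay below the control median, and mutant 5 was the highest mutant for *Spry1* and *Spry2*. The log2 fold changes were -0.10 for *Spry1* (SE 0.086), -0.07 for *Spry2* (SE 0.080) and -0.14 for *Spry4* (SE 0.092), with edgeR adjusted p-values of 0.793, 0.857 and 0.707. The widest of their intervals, that of *Spry4*, was 79.3% to 104% of the control level. *Spry2* held 63.4% ± 1.70 (SD, n = 6) of the summed CPM per kb of these Sprouty genes in controls and 63.9% ± 1.87 in mutants, and the genotypes differed in it by less than 1 SD.

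The members' log2 fold changes shifted when the neuron and Schwann cell scores were added to the edgeR model as covariates. In that model the log2 fold change was 0.14 for *Spry2* (SE 0.10), 0.095 for *Spry4* (SE 0.13), 0.038 for *Etv5* (SE 0.10) and 0.062 for *Fgfr2* (SE 0.097). Without the scores these values were negative, with smaller SEs, and the shift between the models was not tested. The markers behind the scores differed with genotype themselves, so the parts of genotype and of these cells cannot be told apart there. *Fgfr1* was at -0.046, against a positive value without them. *Spry1* at -0.039 and *Fgfr3* at -0.024 kept their sign. *Fgf8* was at 0.41 (SE 0.34) in that model. *Fgf10* was at -0.59 (SE 0.16, unadjusted p = 0.00258, edgeR adjusted p = 0.938), the only member with an unadjusted p under 0.05, which 2.89% of all genes had there. No member was called, and 0.00542% of all genes tested were.

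**Figure D3:**
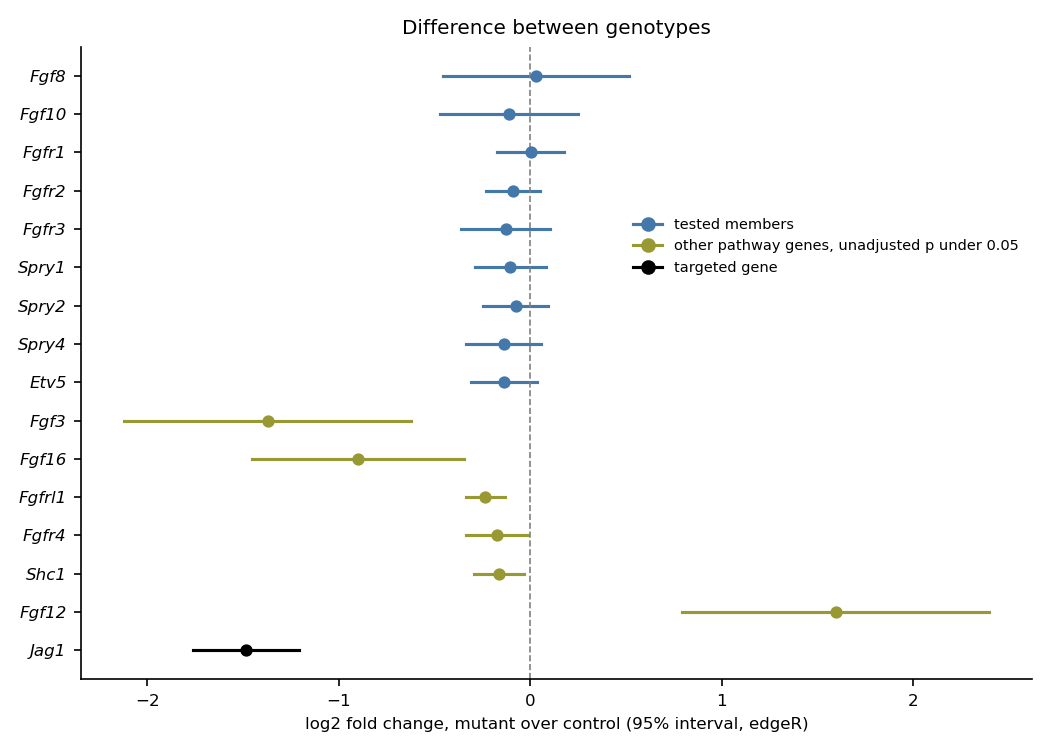
Log2 fold changes of mutants over controls (horizontal axis) with 95% intervals from edgeR, for the 9 tested members (blue), 6 other genes of the pathway with an unadjusted p under 0.05 (olive) and *Jag1* (black). Each interval of a member crosses 0, and the interval of *Jag1* lies between -1.76 and -1.21.

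*Fgf8* and *Fgfr3* were also set against markers of the cells that make them, within each library. *Fgf8* relative to the summed CPM of the inner hair cell markers *Slc17a8* and *Otof* differed by -0.0095 on the log2 scale between mutants and controls (exact permutation test, two-sided, p = 0.961, adjusted p over the 2 ratios = 0.961). *Fgfr3* relative to 7 pillar and Deiters cell markers differed by -0.13 (exact permutation test, two-sided, p = 0.530, adjusted p = 0.961), where 6 against 6 libraries allow no p below 0.00216. The *Fgfr3* ratio depended on its denominator. *S100a1*, the most abundant of the markers, had 280 CPM in controls and 225 CPM in mutants, and *Ngfr*, which Schwann cells also express, had 10.2 and 26.5 CPM. *Emid1* had 66.3 CPM in controls and 90.05 CPM in mutants, and 6 of the 7 markers had a log2 fold change above 0. *Fgfr3* by itself had a log2 fold change of -0.13, so the ratios that follow also hold the change of their denominators. Without *S100a1* the difference was -0.38 (exact permutation test, two-sided, unadjusted p = 0.00649), and with the mean of log2 values in the denominator it was -0.39 (exact permutation test, unadjusted p = 0.0108). Without *S100a1* and *Ngfr*, a choice made after the values were seen, it was -0.32 (exact permutation test, unadjusted p = 0.0411). Without mutant 1, which held the highest marker sum and the lowest *Fgfr3*, the ratio over all markers differed by 0.0062.

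Of the wider pathway, 60 further genes were listed, and 56 of them had enough counts for the test. *Fgf4*, *Fgf5*, *Fgf6* and *Klb* did not. In edgeR 0 of 56 were called, and at an unadjusted p under 0.05 there were 1 higher and 5 lower in mutants, where 6.52% and 4.04% of all genes tested were. DESeq2, which called 3.37% of the genes it gave an adjusted p, called 3 of the 56, and limma-voom, which called 0.103% of all genes, 0. The median log2 fold change of the 56 genes was 0.0012, near the 0.0030 of all genes.

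*Fgfrl1*, which encodes an FGF receptor without a kinase domain, was lower in mutants without overlap but was not called. It was at 109, 114 and 119 CPM in the lowest, median and highest control and at 89.3, 97.9 and 101 CPM in the mutants, and each mutant lay below each control. Among all genes tested 0.379% were separated in this direction. The log2 fold change was -0.23 (SE 0.049, unadjusted p = 0.00026, edgeR adjusted p = 0.0725), with an interval of 79.2% to 91.5% of the control level. It passed the threshold in DESeq2 (adjusted p = 8.6e-05) and in edgeR without mutant 5 (adjusted p = 0.0426), a fit that called 356 genes in all. It missed it in limma-voom (adjusted p = 0.116) and in edgeR without any of the other 11 libraries (adjusted p = 0.0566 to 0.168). With the neuron and Schwann cell scores the log2 fold change was -0.20 (edgeR adjusted p = 1.0). The receptor kinase gene *Fgfr4* was at 140, 175 and 193 CPM in controls and 143, 149 and 161 CPM in mutants (log2 fold change -0.17, SE 0.076, edgeR adjusted p = 0.434). All 6 mutants lay within the control range of *Fgfr4*.

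Among the secreted ligands outside the members, *Fgf3* and *Fgf16* had an unadjusted p under 0.05. *Fgf3*, which is needed for inner ear induction in the embryo, was scarce, with 2 to 42 counts per library. It was at 0.499, 0.790 and 1.21 CPM in controls and 0.0613, 0.315 and 0.565 CPM in mutants, and only mutant 3 reached into the control range. The log2 fold change of *Fgf3* was -1.37 (SE 0.35, edgeR adjusted p = 0.104, DESeq2 adjusted p = 0.0133, limma-voom adjusted p = 0.158), and -0.82 with the neuron and Schwann cell scores (edgeR adjusted p = 1.0). *Fgf16* had 5 to 15 counts per library, with 0.249, 0.366 and 0.516 CPM in controls and 0.137, 0.191 and 0.276 CPM in mutants (log2 fold change -0.90, SE 0.26, edgeR adjusted p = 0.133), and its log2 fold change was -1.43 with the scores (edgeR adjusted p = 1.0). Over the 12 libraries together, the other secreted ligand with the highest mean CPM, not scaled by length, was *Fgf2*, at 21.8, 25.4 and 26.4 CPM in controls and 19.3, 25.0 and 31.4 CPM in mutants (log2 fold change 0.016, SE 0.096, edgeR adjusted p = 0.985). Scaled by transcript length, *Fgf9* stood above it in controls, at 13.2 against 4.20 CPM per kb. By the union of exons these were 4.53 and 3.70 CPM per kb. *Fgf9* had a log2 fold change of -0.056 (SE 0.13, edgeR adjusted p = 0.946).

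FGF homologous factors stay inside the cell, do not activate the receptors and bind voltage-gated sodium channels, chiefly in neurons. *Fgf12* was at 2.10, 3.10 and 5.31 CPM in controls and 3.58, 10.8 and 17.0 CPM in mutants, with only mutant 5 inside the control range. Its log2 fold change was 1.60 (SE 0.37, edgeR adjusted p = 0.0903), and it was called by DESeq2 (adjusted p = 0.00458) and in edgeR without mutant 5 (adjusted p = 0.0197), but not by limma-voom (adjusted p = 0.238). In the model with those marker scores the log2 fold change of *Fgf12* was 0.18 (SE 0.27, edgeR adjusted p = 1.0). Mutant 5 also had the lowest neuron marker sum of the mutants, 94.0 CPM. *Fgf11*, the most abundant of these factors, averaged 24.5 CPM in controls (SD 2.42, n = 6) and 23.6 CPM in mutants (SD 1.61, n = 6).

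**Figure D4:**
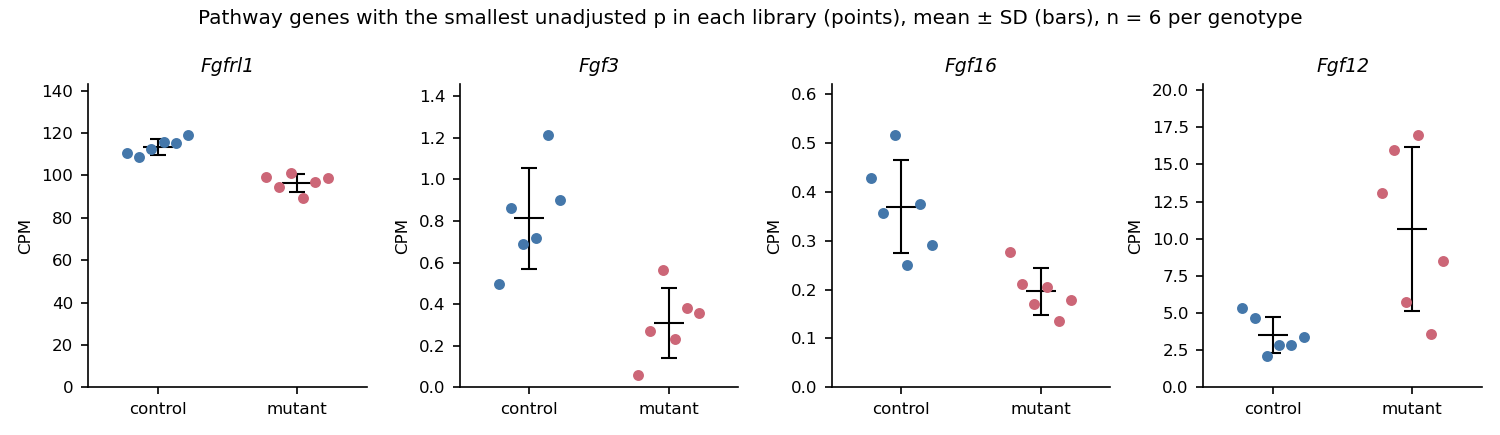
Levels in CPM (vertical axes from 0) of the receptor gene *Fgfrl1*, the ligands *Fgf3* and *Fgf16* and the intracellular factor *Fgf12* in 6 control and 6 mutant libraries, with mean and SD. The genotypes are separate for *Fgfrl1*, and for each of the other genes 1 mutant lies within the control range.

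In the relay below the receptors, the adaptor *Shc1* was at 171, 192 and 203 CPM in controls and 156, 169 and 185 CPM in mutants (log2 fold change -0.16, SE 0.061, edgeR adjusted p = 0.301). None of the 18 adaptor and relay genes was called, and their median log2 fold change was 0.0074. *Ptpn11*, the phosphatase that couples the receptors to Ras and the most abundant of them, averaged 255 CPM in controls (SD 14.3, n = 6) and 250.4 CPM in mutants (SD 22.8, n = 6). Of 12 further feedback genes 0 were called and 6 were below 0, and the most abundant, *Spred1*, averaged 129 CPM in controls (SD 21.8, n = 6) and 133 CPM in mutants (SD 15.2, n = 6). *Bmp4*, the most abundant of the pillar cell patterning genes linked to FGF, averaged 46.3 CPM in controls (SD 4.23, n = 6) and 42.5 CPM in mutants (SD 5.06, n = 6, edgeR adjusted p = 0.723).

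The members did not vary together among mice of 1 genotype in a way that passed a test. For 45 pairs of members, deviations of log2(CPM + 0.5) from the genotype mean were correlated over the 12 libraries, with genotype labels kept in 100000 permutations. None had an adjusted p under 0.05 by Pearson's r or Spearman's rho. The strongest positive pair was *Fgfr2* with *Spry2*, at r = 0.78 (permutation p = 0.0138, adjusted p = 0.255) and rho = 0.75 (permutation p = 0.0221, adjusted p = 0.302), and r = 0.62 without mutants 1 and 2. The strongest negative pair was *Fgf10* with *Etv5*, at r = -0.69 (permutation p = 0.0207, adjusted p = 0.255) and rho = -0.71 (permutation p = 0.0178, adjusted p = 0.302), and r = -0.59 without control 3 and mutant 4.

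Members were also set against the 11 summed marker lists, 110 pairs in all, of which 0 had an adjusted p under 0.05 and 17 an unadjusted p under 0.05. *Fgf10* went up with the Schwann cell sum within each genotype, at r = 0.93 in the 6 controls and 0.80 in the 6 mutants, and over 12 libraries at r = 0.82 (permutation p = 0.00197, adjusted p = 0.217) and rho = 0.83 (permutation p = 0.00248, adjusted p = 0.101). It was 0.85 without mutants 1 and 2. The Schwann cell sums were higher in mutants and *Fgf10* was not called in either direction, with a log2 fold change of -0.11 in the model without the scores and -0.59 with them. *Fgfr2* went the other way, at r = -0.80 (permutation p = 0.00825, adjusted p = 0.266) and rho = -0.87 (permutation p = 0.0022, adjusted p = 0.101), and -0.58 without mutants 1 and 2. It was -0.42 in controls and -0.92 in mutants. For *Spry2*, r was -0.80 (permutation p = 0.0138, adjusted p = 0.266) and rho -0.83 (permutation p = 0.00527, adjusted p = 0.145), and r was -0.62 without mutants 1 and 2, -0.34 in controls and -0.90 in mutants. *Spry4* (r = -0.66, permutation p = 0.0104, adjusted p = 0.266) and *Etv5* (r = -0.67, permutation p = 0.0218, adjusted p = 0.266) also fell with the Schwann cell sum. With the greater epithelial ridge sum, r was 0.68 for *Spry1* (permutation p = 0.0206, adjusted p = 0.266) and 0.62 for *Spry2* (permutation p = 0.0166, adjusted p = 0.266). Without control 3 and mutant 1 these were 0.23 and 0.85. Not all 17 pairs are given here. *Fgfr2* followed the hair cell sum at r = 0.81 (permutation p = 0.00395, adjusted p = 0.217) and rho = 0.84 (permutation p = 0.00276, adjusted p = 0.101), with 0.73 in controls, 0.83 in mutants and 0.77 without mutants 1 and 4. *Fgfr3* followed the hair cell sum at r = 0.79 (permutation p = 0.0250, adjusted p = 0.273) and rho = 0.67 (permutation p = 0.0293, adjusted p = 0.273). This rested on mutants 1 and 4, without which r was 0.12. With the Hensen cell sum, *Fgfr1* had r = -0.80 (permutation p = 0.0207, adjusted p = 0.266), at 0.012 in controls, -0.90 in mutants and -0.58 without mutants 2 and 4. *Fgfr3* had r = -0.61 (permutation p = 0.120, adjusted p = 0.437) and rho = -0.76 (permutation p = 0.00959, adjusted p = 0.161) with that sum.

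**Figure D5:**
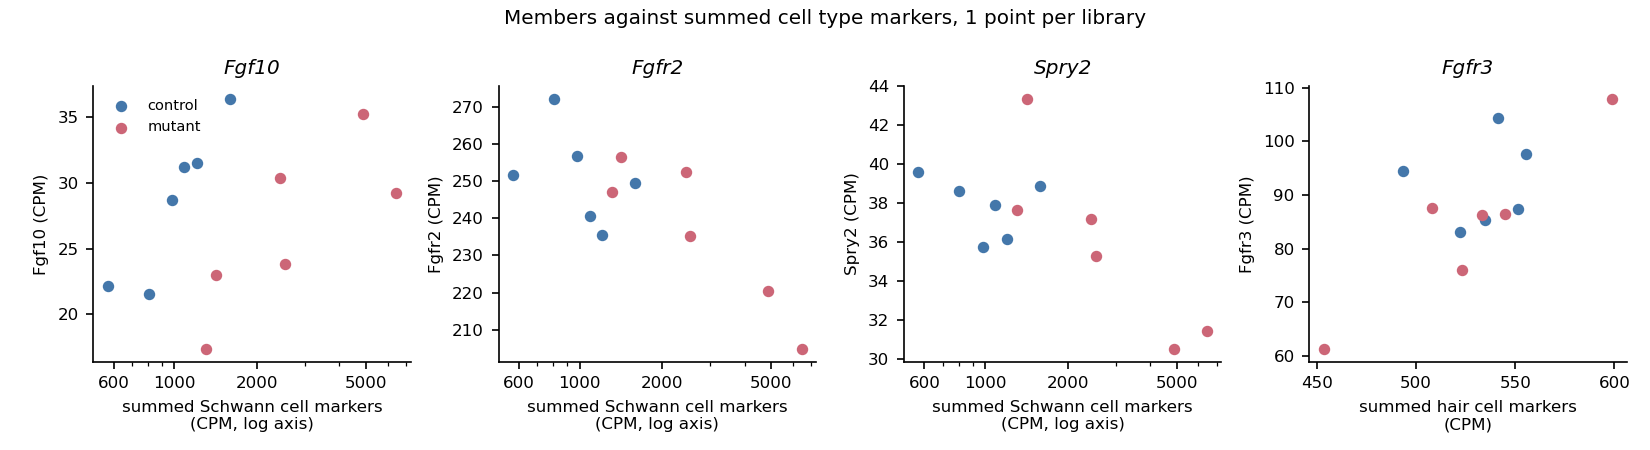
CPM of *Fgf10*, *Fgfr2* and *Spry2* against the summed Schwann cell markers (log axis, CPM) and of *Fgfr3* against the summed hair cell markers (linear axis, CPM), 1 point per library. *Fgf10* goes up with the Schwann cell sum in each genotype, while the mutants with the highest sums have the lowest *Fgfr2* and *Spry2*, and the *Fgfr3* panel is spanned by mutant 1 at the lower left and mutant 4 at the upper right.

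Over the 12 libraries, with genotype means removed, the genes most like *Fgf8* among 14824 compared were *Gpc1* (Pearson's r = 0.90), which encodes a heparan sulfate proteoglycan of the cell surface, *Ptx3* (r = 0.87) and *Zfpm1* (r = 0.86). Those most like *Fgfr3* were *Cit* (r = 0.92), *Satb1* (r = 0.92) and *4833422C13Rik* (r = 0.91). These are the highest of many values and carry no test.

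Promoter sequence was read for the genes whose feedback or separation the results turn on, from RefSeq windows of 300 bases on GRCm38.p6. Windows were found for 6 of the 10 members, 8 windows in all. Each was searched on both strands for GGAAGT, the core bound by ETS factors such as ETV5, for its longer form CCGGAAGT, for the AP-1 motif TGACTCA and for GTGGGAA, bound by the Notch partner RBPJ. GGAAGT was present in 1 of the 8 windows, and in 23.8% of 32851 windows of all genes. The other 3 motifs were in none of the 8, against 3.89% of all windows for CCGGAAGT, 5.20% for TGACTCA and 6.38% for GTGGGAA. The window with GGAAGT belongs to a second start of *Etv5*. The window of *Fgfrl1*, a gene picked for its separation in these same data, holds CCGGAAGT, beginning 48 bases before the start. A link between the motifs and the levels was not tested. That *Etv5* window holds GGAAGT at 2 places, and 1 of them lies in the bases shown. The window of *Fgf3*, also searched, held none of the motifs. The 250 bases before the starts of *Etv5* and *Fgfrl1* are shown with the motifs in capitals, *Etv5* at chr16:22438369-22438618 on the minus strand and *Fgfrl1* at chr5:108693979-108694228 on the plus strand.
Etv5: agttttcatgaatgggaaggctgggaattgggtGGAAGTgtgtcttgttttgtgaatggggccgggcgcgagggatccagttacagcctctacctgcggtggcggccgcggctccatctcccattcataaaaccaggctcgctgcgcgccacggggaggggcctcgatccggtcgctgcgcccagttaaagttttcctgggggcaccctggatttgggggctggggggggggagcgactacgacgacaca
Fgfrl1: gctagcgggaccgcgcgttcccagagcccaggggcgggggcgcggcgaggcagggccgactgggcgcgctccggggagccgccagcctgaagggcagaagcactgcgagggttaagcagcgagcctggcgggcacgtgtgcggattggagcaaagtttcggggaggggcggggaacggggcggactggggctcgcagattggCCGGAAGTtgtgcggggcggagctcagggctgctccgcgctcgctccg
A match of letters is no measurement of binding.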

How the data were processed

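RNA-seq counts from 12 libraries of P6 cochlear sensory epithelium, 6 per genotype, were analysed. The authors deposited raw read counts per gene symbol, neither normalized nor pooled. The submitters' processing notes name Trimmomatic 0.32, STAR 2.4.2a, HTSeq 0.9.1, DESeq2 1.10.1 and GRCm38.p4. The strand setting is not given in the sources used here, so reads of a gene and of an overlapping antisense gene cannot be told apart. The authors' table of their own DESeq2 comparison (fold changes and p-values) was not used.

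The genes averaging 5 or more counts were compared by edgeR 4.0.16 (R 4.3.3) with the robust quasi-likelihood F-test and TMM, and p-values were adjusted by Benjamini-Hochberg over 18459 genes. Alternatives were DESeq2 1.42.0 without a prior, limma-voom (limma 3.58.1), RLE scaling, no count limit, a mean count of at least 20, the replicate number as a block, neuron and Schwann cell scores or *Xist* as covariates, and leaving out each library. edgeR was tested on simulated counts. Permutation tests used SciPy 1.17.1. Coordinates and transcript lengths are from GENCODE M21 (GRCm38), in which 92.4% of the symbols and all 10 members were found. No 2 libraries of a genotype were duplicates (chi-square per degree of freedom 13.5 to 71.0 over 30 pairs).

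The members and the gene and marker lists were chosen with earlier results of these data known. A gene of the wider list is not reported here and was left out of its counts. Genes named were the members, *Jag1*, the wider-list genes with an unadjusted p under 0.05, the most abundant gene of each group by CPM, those below the count limit by name, and the 3 genes most like *Fgf8* and *Fgfr3*. *Fgf13*, *Fgf1*, *Fgf9* and the genes likened to other members were chosen after their values were seen.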

Additional observations from a re-analysis of the deposited data

Results flagged for a closer look

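For the members and the named pathway genes, 46 groups of 6 values were examined for a library far from the other 5 (Dixon's test, 95% level), which chance sets apart in about 5% of groups, and 4 stood apart. *Fgfr1* was at 279.6 CPM in control 1, where the other controls began at 306 CPM. *Fgfr1* was at 394 CPM in mutant 2, where the next mutant had 309 CPM. The genes most like *Fgfr1* over the 12 libraries were *Zbtb16* (r = 0.93, rho = 0.86), *Arrdc2* (r = 0.92, rho = 0.71) and *Trim26* (r = 0.92, rho = 0.90). They are the highest among 14824 genes compared and carry no test, and the cause of the *Fgfr1* value in mutant 2 was not tested. *Fgf20* was at 0.376 CPM in control 5, where the next control had 0.178 CPM, both from few counts. *Fgf2* was at 21.8 CPM in control 5, where the other controls began at 25.3 CPM.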

How the results depend on the processing

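No member was called under any alternative run. The number of genes called over the whole table was 35 and became 619 with DESeq2, 19 with limma-voom, 57 with no count limit, 131 with the replicate block, 1 with neuron and Schwann cell scores, 23 with *Xist* and 70 without mutants 1 and 4 (an alternative added after seeing the data). It was 14 to 356 leaving out each library, highest without mutant 5. Wider pathway genes called were 3 with DESeq2, 1 with the replicate block (*Fgf12*, adjusted p = 0.0321) and 0 to 2 leaving out each library.

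The log2 fold change of *Fgfr1* was -0.0039 with limma-voom, -0.0035 with no count limit, -0.0044 with the block and -0.046 with the scores. With the scores, values of the opposite sign were 0.062 for *Fgfr2*, 0.14 for *Spry2*, 0.095 for *Spry4*, 0.038 for *Etv5*, 0.055 for *Fgf11*, 0.12 for *Bmp4* and -0.36 for *Fgf1*. Without mutants 1 and 4, *Ptpn11* was at 0.0072 and *Fgf13* at -0.081. Leaving out each library gave -0.074 to 0.14 for *Fgf8*, -0.077 to 0.030 for *Fgfr1*, -0.031 to 0.10 for *Spred1*, -0.053 to 0.084 for *Fgf2*, -0.061 to 0.015 for *Ptpn11* and -0.12 to 1.08 for *Fgf13*. The *Fgf8* ratio was 0.0020 without *Slc17a8* and -0.12 to 0.12 leaving out each library, and the *Fgfr3* ratio -0.20 to 0.0062, against -0.38 without *S100a1*, -0.39 as a mean of log2 values and -0.32 without *S100a1* and *Ngfr*. The cause was not tested.

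The sources used here do not say that same-numbered libraries were paired. Same-numbered libraries deviated together with r from -0.187 to 0.272, over 0.1 in 3 of 6 pairs, so the numbers were not taken as a pairing. *Fgf8*, *Fgf20*, *Fgf3* and *Fgf16* had at most 50 counts in a library, and how much of their error is counting error was not separated from the spread between mice.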

Other observations

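Other pathway genes varied among libraries more than between the genotypes. *Fgf13*, an FGF homologous factor of neurons, was at 40.0 CPM in mutant 4 and between 4.75 and 7.35 CPM in the other 11 libraries. Mutant 4 also had the highest neuron marker sum, 1160 CPM. Its log2 fold change of 0.92 (edgeR adjusted p = 0.662) was -0.12 without mutant 4. The genes most like *Fgf12* over the 12 libraries were *Elavl4* (r = 0.98, rho = 0.94), which encodes a neuronal RNA-binding protein, *Sez6l2* (r = 0.98, rho = 0.94) and *Ndrg4* (r = 0.98, rho = 0.96).

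*Fgf1*, a secreted ligand, lay between 6.54 and 8.75 CPM in controls 2, 3 and 4 and in mutant 3, at 7.32 CPM, and between 22.5 and 46.6 CPM in the other 8 libraries. Each genotype held libraries of either level, and the log2 fold change was 0.66 (SE 0.51, edgeR adjusted p = 0.774).

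*Fgf10* was most like *Ednrb* (r = 0.96, rho = 0.91), the endothelin receptor of neural crest derivatives, and *Gjc3* (r = 0.92, rho = 0.92), which encodes a connexin of Schwann cells. *Jag1* itself came second among the genes most like *Spry1* (r = 0.92, rho = 0.85, genotype means removed, 14824 genes compared). The genes most like *Fgfrl1* were *2810417H13Rik* (r = 0.86, rho = 0.81), *2310040G24Rik* (r = 0.85, rho = 0.80) and *Spc24* (r = 0.85, rho = 0.88). For *Fgf3*, with 2 to 42 counts per library, they were *Tcte2* (r = 0.83, rho = 0.85), *Grhl2* (r = 0.83, rho = 0.73) and *Kif11* (r = 0.82, rho = 0.73). These values are the highest of many and carry no test.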
